A study of Mus musculus with 7 samples.

Results

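The 10 genes described here encode enzymes of extracellular proteolysis in brain microglia, with their inhibitors and a receptor. They are Mmp12, Mmp14, Mmp2, Timp1, Timp3, Ide, Mme, Ece1, Plau and Plaur, taken by symbol from the 19505 genes that the array annotation names. Each had 1 probe set, so no choice between probe sets was needed. Mmp12 was chosen by its knockout-minus-wildtype difference in these same arrays, and the other genes were added for their known roles with earlier results in view. The differences between genotypes are therefore given for all 10 genes as a description with their standard errors, and limma counts over them are printed only beside the share over all genes and support nothing. Expression was measured with 1 array per sample in microglia sorted from brain as viable CD45+ CD11b+ cells. The tested mice were 5xFAD;B2m-/- (4 arrays), and the controls were 5xFAD;B2m+/+ (3 arrays). Both groups carried the 5xFAD transgenes on the C57BL/6 strain, so the plaque-forming background was shared. The 5xFAD transgenes are driven by a neuronal promoter and encode mutant human APP and presenilin, so the amyloid peptide is made by neurons. B2m encodes beta-2-microglobulin, which MHC class I molecules need to reach the cell surface, and mice without it have few CD8+ T cells. Age and sex are not given in the labels, and no label says that arrays came from separate animals.

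Matrix metalloproteinases are zinc enzymes that cut proteins of the extracellular matrix and are held in check by the TIMP inhibitors. Neprilysin (Mme), insulin-degrading enzyme (Ide) and endothelin-converting enzyme (Ece1) are metallopeptidases known to cleave the amyloid-beta peptide. Urokinase (Plau), bound to its receptor (Plaur), turns plasminogen into plasmin, a broad serine protease that also cleaves amyloid. Microglia gather around plaques and are among the cells that can release such enzymes. Several promoters of this kind are known to hold AP-1 and PEA3 (an ETS family) motifs.

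The sequences before the starts of Mmp12 and Plaur are shown because these were the genes with the largest difference in each direction among the 10. They come from RefSeq, build GRCm38.p6, and cover the 250 bases before each annotated start on the plus strand. Capitals mark the AP-1 letters TGANTCA, which read the same on both strands, and the PEA3 letters AGGAAG on either strand. Mmp12 has 2 annotated starts, at the ends of chr9:7344147-7344396 and chr9:7347124-7347373, and Plaur has 1, at the end of chr7:24462233-24462482.
Mmp12 upstream start: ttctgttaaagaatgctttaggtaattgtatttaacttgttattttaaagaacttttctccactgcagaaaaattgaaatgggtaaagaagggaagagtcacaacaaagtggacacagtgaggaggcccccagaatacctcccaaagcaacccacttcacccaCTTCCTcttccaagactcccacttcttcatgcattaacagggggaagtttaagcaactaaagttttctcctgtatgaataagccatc
Mmp12 downstream start: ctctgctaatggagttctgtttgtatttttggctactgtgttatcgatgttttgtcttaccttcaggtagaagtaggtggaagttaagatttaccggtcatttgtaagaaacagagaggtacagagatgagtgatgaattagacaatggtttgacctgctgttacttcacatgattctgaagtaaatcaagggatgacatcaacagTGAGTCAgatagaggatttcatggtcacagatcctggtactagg
Plaur: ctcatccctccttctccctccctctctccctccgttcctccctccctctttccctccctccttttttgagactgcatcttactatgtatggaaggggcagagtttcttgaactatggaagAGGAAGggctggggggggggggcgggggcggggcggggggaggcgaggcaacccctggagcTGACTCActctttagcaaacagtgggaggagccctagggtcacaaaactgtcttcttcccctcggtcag
The AP-1 match began 44 bases before the downstream Mmp12 start and 69 bases before the Plaur start. The PEA3 match began 130 bases before the Plaur start, and in Mmp12 it lay 87 bases before the upstream start on the minus strand. RefSeq windows were found for 8 of the 10 genes. The AP-1 letters occurred before a start of 3 of these 8 (Mmp12, Mme and Plaur), against 7.82% of 27025 genes. The PEA3 letters occurred in 5 of the 8 (Mmp12, Mmp14, Timp1, Timp3 and Plaur), against 32.3% of genes. A gene with several annotated starts has more chances to match, so the shares by start are also given. By start, the AP-1 letters occurred in 3 of 14 windows, against 6.75% of all 32851. The PEA3 letters occurred in 5 of these 14 windows, against 29.5% of all. These matches are descriptions of letters, and which start the microglia used was not analysed here.

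All values are on the log2 scale that the authors obtained with RMA, and each difference is the knockout mean minus the wildtype mean. B2m, the targeted gene, was at 10.40, 10.56, 10.47 and 10.24 in the knockout arrays, against 13.42, 13.41 and 13.39 in the wildtype arrays. It was lower by 2.99 (SE 0.10, limma adjusted p = 1.54e-07), as the labels call for. Microglial identity was checked with 10 markers, of which 9 were measured. All 9, including P2ry12, Tmem119 and Csf1r, were brighter on every array than 95% of its 5222 negative control rows. That level, here called the background level, ran from 9.35 to 9.55 and is a rough guide, since some control rows were bright. The mean over the 9 markers was 12.15 to 12.30 in knockout and 12.21 to 12.29 in wildtype arrays. All 6 measured T cell markers lay at or below the background level on every array. By contrast, 4 of 9 measured neutrophil markers and 5 of 12 endothelial markers lay above it on every array. Ngp, a neutrophil marker, was at 12.68 in knockout and 12.48 in wildtype arrays on average. The sorted cells were therefore not shown to be microglia alone.

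Of the 10 genes, 8 passed the filter on dim genes, which required at least 3 arrays with a value over the median named gene of that array. Timp1 and Mme did not. In limma 0 of the 8 passed an adjusted p of 0.05, where 5 of 10004 tested genes did (0.05%). At an unadjusted p under 0.05 there were 3 of the 8, Mmp12 and Ece1 lower and Plaur higher, where the share over all tested genes was 11.9% (3.54% lower and 8.39% higher). The genotypes did not overlap for these 3 genes either, where the share over all tested genes was 10.9% (3.8% lower and 7.1% higher). Nothing is read from these counts, because the same contrast was used to pick Mmp12, and Ece1 passed the filter mainly through the wildtype arrays, where it is higher. The median difference was -0.064 over all 10 genes, with 8 of 10 below 0, and -0.0055 over all tested genes.

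**Figure D1:**
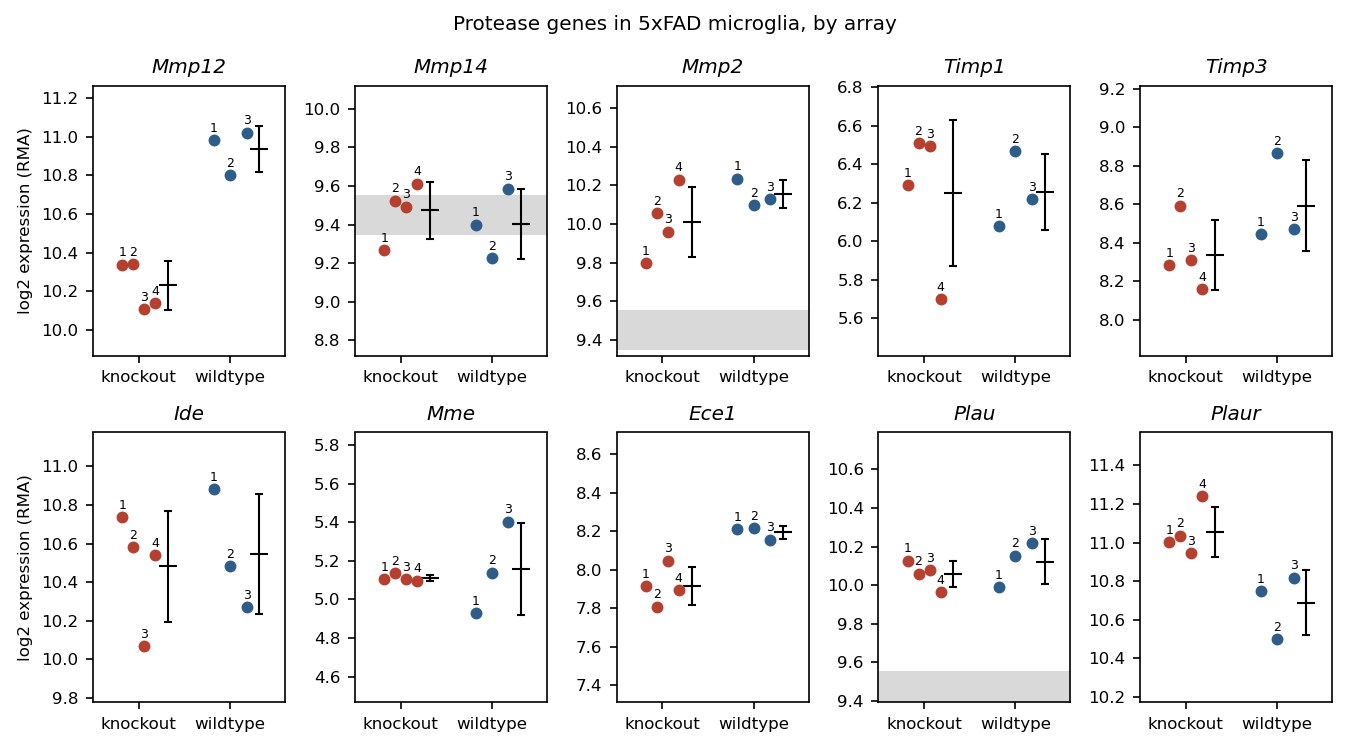
Log2 expression of the 10 genes on each array (points numbered by replicate), with knockout on the left and wildtype on the right of each panel. Black bars are mean ± SD, the grey band is the range of the background level over arrays where it falls inside a panel, and every panel spans the same height. The groups are apart in Mmp12, Ece1 and Plaur and overlap in the other 7 panels.

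Mmp12 (Entrez Gene 17381) encodes macrophage elastase, which cuts elastin and other matrix proteins. Its level was 10.34, 10.34, 10.11 and 10.14 in the knockout arrays, against 10.98, 10.80 and 11.02 in the wildtype arrays. Every knockout array was below every wildtype array, with a gap of 0.46 between the nearest pair. The spread inside each genotype was about the same, 0.23 from lowest to highest in knockout and 0.22 in wildtype arrays. The means were 10.23 ± 0.13 (SD, n = 4) in knockout and 10.94 ± 0.12 (SD, n = 3) in wildtype arrays. The difference was -0.71 (SE 0.11), which is 1.63-fold lower, a size that the choice of Mmp12 by this contrast can overstate. Of the 10004 tested genes 24 (0.24%), Mmp12 among them, had a difference this low or lower. That rank follows from the choice of Mmp12 by this contrast and supports nothing. All Mmp12 values lay above the background level and exceeded 97.5% to 98.1% of the control rows in knockout and 98.6% to 99.0% in wildtype arrays. In sorted cells measured in bulk, fewer cells that make a transcript and less of it per cell cannot be told apart.

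Markers of other cells moved between these arrays, so their levels are set beside Mmp12. The mean over 12 endothelial markers was 9.66, 9.49, 9.59 and 9.47 in knockout arrays, against 10.15, 10.14 and 9.44 in wildtype arrays. Wildtype replicate 3, the array lowest in these markers, was the highest for Mmp12. With wildtype replicates 1 and 2 left out, which leaves 1 wildtype array, the Mmp12 difference was -0.79. The mean over 9 neutrophil markers was 9.67, 10.36, 11.03 and 11.70 in knockout arrays, against 10.03, 10.53 and 9.80 in wildtype arrays. Knockout replicates 3 and 4, highest in these markers, had the lowest Mmp12 values. Knockout replicate 1, lowest in them, had Mmp12 at 10.34, below every wildtype array. Without knockout replicates 3 and 4 the Mmp12 difference was -0.60. These alternatives were chosen after seeing the data. Markers of border-associated macrophages, which line the vessels and meninges, had a mean of 9.05 to 9.18 in knockout and 9.02 to 9.39 in wildtype arrays over 8 genes. Of those 8, 3 were higher and 5 lower in knockout samples, with a median of -0.067 and 0 past the limma threshold (0 at an unadjusted p under 0.05). Monocyte markers had a mean of 8.86 to 9.99 in knockout and 8.56 to 9.10 in wildtype arrays over 7 genes. Of the 6 tested, 4 were higher and 2 lower in knockout samples, with a median difference of 0.63. In limma 0 of these were called and 3 had an unadjusted p under 0.05, all higher, where the share over all tested genes was 11.9% (8.39% higher). Among the monocyte markers S100a4, a calcium-binding protein, had the smallest p and differed by 0.92 (SE 0.18). Fn1, the one with the highest mean, differed by -0.32 (SE 0.23). The part of these other cells in the Mmp12 difference was not tested.

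**Figure D2:**
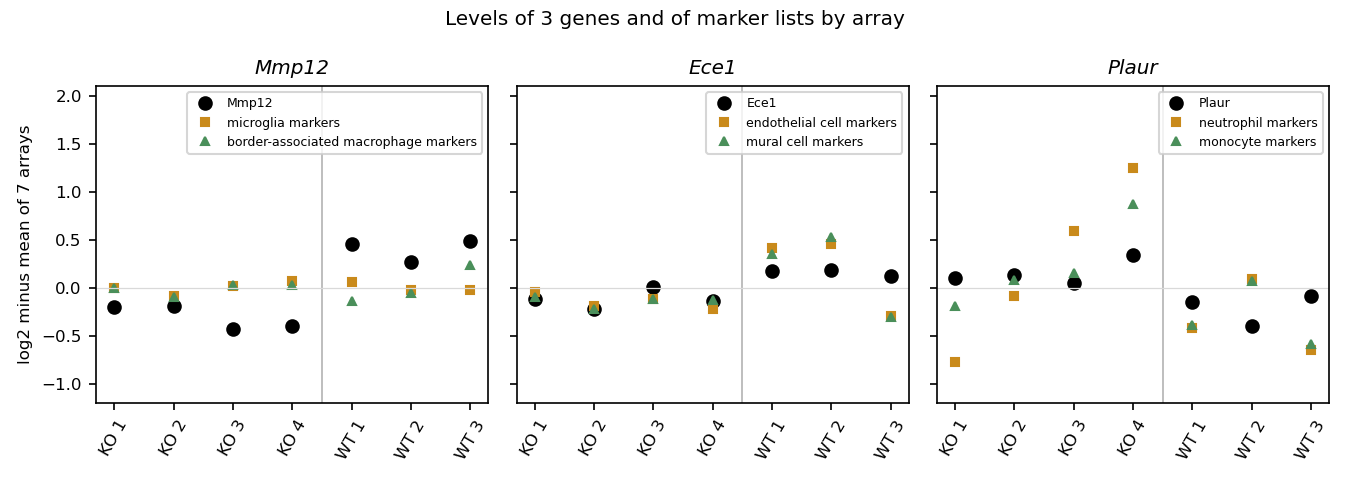
Levels of Mmp12, Ece1 and Plaur (black) and means of the tested genes of marker lists (colours) on each array, as log2 minus the mean of the 7 arrays, with the knockout arrays (KO) left of the wildtype arrays (WT). Microglial markers stay near 0 on all arrays, endothelial and mural markers are high in wildtype replicates 1 and 2, and neutrophil markers are highest in knockout replicate 4.

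Profiles over the 7 arrays were ranked by nearness to Mmp12, with predicted genes, RIKEN clones, pseudogenes and clone-numbered symbols left out. The 5 nearest of the tested genes that remained were Hbegf, Slc6a20a, Fam221a, Podxl and Csrnp2. Nearness was the root mean square difference between log2 profiles after each gene's own mean was removed. It was 0.14 for Hbegf, 0.15 for Slc6a20a, 0.17 for Fam221a, 0.17 for Podxl and 0.18 for Csrnp2. The median over the tested genes that remained was 0.40. Hbegf encodes a membrane-anchored ligand of the EGF receptor. Its level was 9.66, 9.61, 9.18 and 9.54 in the knockout arrays, against 10.09, 9.89 and 10.05 in the wildtype arrays. Like Mmp12, Hbegf had its lowest knockout value in replicate 3 and its lowest wildtype value in replicate 2. The other 4 genes lay at or below the background level on all arrays. Slc6a20a passed the filter through 3 wildtype arrays and 0 knockout arrays. All 5 were chosen for this likeness over the same 7 arrays. Their differences, from -0.43 for Fam221a to -0.62 for Slc6a20a, and the replicate pattern of Hbegf therefore follow from the choice.

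The other metalloproteinases among the 10 overlapped between genotypes. Mmp14 (Entrez Gene 17387) encodes the membrane-bound enzyme MT1-MMP, which activates the proenzyme of MMP-2. It was at 9.27, 9.52, 9.49 and 9.61 in knockout arrays, against 9.40, 9.22 and 9.59 in wildtype arrays. The highest and the lowest values of both genotypes were close to each other. The difference was 0.071 (SE 0.12, 95% confidence interval -0.20 to 0.34), and it was -0.018 without wildtype replicate 2, so its direction is not settled. Mmp14 exceeded the background level on 5 of 7 arrays. Mmp2 (Entrez Gene 17390) encodes gelatinase A, its substrate in that activation. It was at 9.80, 10.06, 9.96 and 10.23 in knockout arrays, against 10.24, 10.10 and 10.13 in wildtype arrays. Knockout replicate 4 lay among the wildtype arrays and the other knockout arrays below them. The difference of -0.14 (SE 0.12) had a 95% confidence interval of -0.40 to 0.12. Mmp2 lay above the background level on all 7 arrays.

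The 2 inhibitors gave no clear separation. Timp3 (Entrez Gene 21859) encodes a matrix-bound inhibitor of metalloproteinases and of ADAM proteases. It was at 8.28, 8.59, 8.31 and 8.16 in knockout arrays, against 8.44, 8.87 and 8.47 in wildtype arrays. The highest knockout value, in replicate 2, passed the lower 2 wildtype values. The difference was -0.26 (SE 0.14), and -0.12 without wildtype replicate 2, the array highest for Timp3. That array was also highest in mural markers (cells of the vessel wall), whose mean over 10 genes was 8.11 to 8.26 in knockout arrays, against 8.51, 8.75 and 8.12 in wildtype arrays. The part of vessel cells in the Timp3 values was not tested. Timp1 (Entrez Gene 21857), a soluble inhibitor, was at 6.29, 6.51, 6.49 and 5.70 in knockout arrays, against 6.08, 6.47 and 6.22 in wildtype arrays. Timp1 values exceeded 37.0% to 56.4% of the control rows and Timp3 values 82.4% to 90.8%. No fold is given for either gene.

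Of the 3 peptidases that cleave amyloid-beta, Ece1 was apart between genotypes. Ece1 (Entrez Gene 230857) was at 7.91, 7.81, 8.05 and 7.89 in knockout arrays, against 8.21, 8.21 and 8.16 in wildtype arrays. All 4 knockout arrays were lower, by 0.11 at the nearest pair, and the wildtype arrays spanned only 0.059. The difference was -0.28 (SE 0.097). The gene was dim, above 78.2% to 84.7% of the control rows. It passed the filter through all 3 wildtype arrays and 1 of 4 knockout arrays. Ece1 is also expressed in endothelial cells, whose markers were higher in wildtype replicates 1 and 2. Wildtype replicate 3, with endothelial markers below those of every knockout array, had Ece1 at 8.16, above the highest knockout value of 8.05. Without wildtype replicates 1 and 2 the Ece1 difference was -0.24. The part of endothelial cells in the Ece1 values was not tested.

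Ide (Entrez Gene 15925), which also degrades insulin, was at 10.74, 10.58, 10.07 and 10.54 in knockout arrays, against 10.88, 10.48 and 10.27 in wildtype arrays. The knockout arrays spanned 0.67 and the wildtype arrays 0.61 log2 units, in both genotypes the widest span among the 8 tested genes. The difference was -0.064 (SE 0.18), with a 95% confidence interval of -0.46 to 0.34, and it was 0.11 without wildtype replicate 1. Ide was above the background level on all arrays. Mme (Entrez Gene 17380) was at 5.11, 5.14, 5.11 and 5.10 in knockout arrays, against 4.93, 5.14 and 5.40 in wildtype arrays. It exceeded 24.1% to 35.1% of the control rows, so the probe set gave no Mme signal above the background level in either genotype.

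The urokinase pair was bright on all arrays, and the receptor was higher in knockout samples. Plaur (Entrez Gene 18793) was at 11.00, 11.04, 10.95 and 11.24 in knockout arrays, against 10.75, 10.50 and 10.82 in wildtype arrays. Every knockout array exceeded every wildtype array, by 0.13 at the nearest pair. The means were 11.06 ± 0.13 (SD, n = 4) in knockout and 10.69 ± 0.17 (SD, n = 3) in wildtype arrays. The difference was 0.37 (SE 0.12), which is 1.29-fold higher. Plau (Entrez Gene 18792) was at 10.13, 10.06, 10.08 and 9.96 in knockout arrays, against 9.99, 10.15 and 10.22 in wildtype arrays. The genotypes overlapped, and the difference of -0.064 (SE 0.10) had a 95% confidence interval of -0.29 to 0.16. Plau values spanned 0.25 log2 units over all 7 arrays, the narrowest range of the 10 genes.

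Neutrophils and monocytes also carry the urokinase receptor, and their markers varied widely. The mean over 9 neutrophil markers was 9.67, 10.36, 11.03 and 11.70 in knockout arrays, against 10.03, 10.53 and 9.80 in wildtype arrays. All 9 had differences above 0, with a median of 0.58 and 0 past the limma threshold (1 at an unadjusted p under 0.05). Of all 10004 tested genes, 4866 were above 0 and 11.9% had an unadjusted p under 0.05 in limma. Among the 9 neutrophil markers Ngp, the one with the highest mean, was 12.68 in knockout and 12.48 in wildtype arrays on average. Plaur was highest in knockout replicate 4, the array highest in neutrophil markers. Knockout replicate 1 had neutrophil markers below all wildtype arrays and Plaur at 11.00, above the highest wildtype value of 10.82. The monocyte marker mean was 8.86, 9.16, 9.24 and 9.99 in knockout arrays, against 8.67, 9.10 and 8.56 in wildtype arrays. In knockout replicate 1 it was thus above wildtype replicates 1 and 3 and below replicate 2. Without knockout replicates 3 and 4, an alternative chosen after seeing the data, the Plaur difference was 0.33. The part of neutrophils and monocytes in the Plaur values was not tested.

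Beyond these 10 genes, 74 further genes of the same systems were listed, of which 65 were measured and 33 passed the filter. In limma 0 of the 33 passed over all genes, and 3 had an unadjusted p under 0.05, Anxa2 higher and Reck and Lamc1 lower. The share over all tested genes was 11.9% (3.54% lower and 8.39% higher), and it stands beside the counts per list below. Nothing is read from these counts. Over the 33 the median difference was -0.073, with 13 above 0 and 20 below. Of all 10004 tested genes, 4866 were above 0 and 5138 below.

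**Figure D3:**
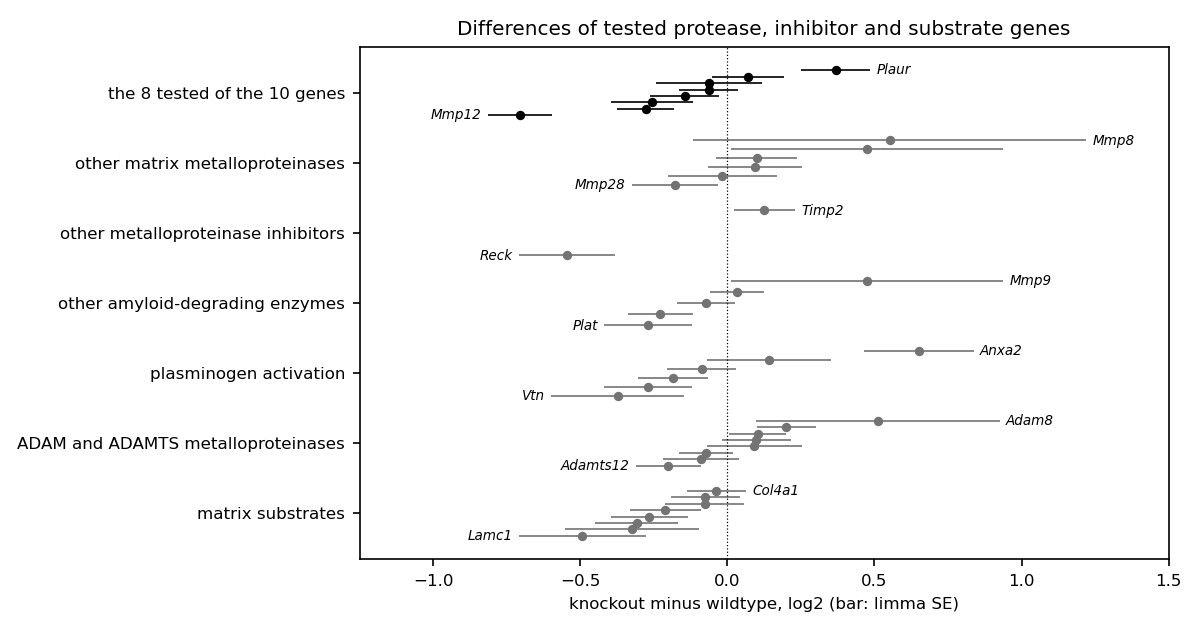
Differences (knockout minus wildtype, log2) with limma standard errors for the 8 tested genes of the 10 (black) and for tested genes of 6 lists (grey), each list ordered by its values and its end members named. Mmp12 at -0.71, chosen by this contrast, lies lowest of all genes drawn, and the 8 tested matrix substrates all lie below 0. Of all 10004 tested genes, 5138 were below 0.

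The other matrix metalloproteinases were mostly dim. Of 20 listed, 18 were measured, 6 were tested and 16 lay at or below the background level on all arrays. Differences were above 0 in 4 and below 0 in 2, with a median of 0.097, 0 called and 0 at an unadjusted p under 0.05 in limma. Mmp8 and Mmp9, the neutrophil collagenase and gelatinase B, differed by 0.55 (SE 0.67) and 0.47 (SE 0.46). Both are also on the neutrophil list, and both were highest in knockout replicate 4. Mmp28 differed by -0.18 (SE 0.15). Of 5 other inhibitors 2 were tested, with 0 called in limma and 1, Reck, at an unadjusted p under 0.05. Timp2, which helps Mmp14 activate the Mmp2 product, was at 12.42 in knockout and 12.29 in wildtype arrays on average, a difference of 0.13 (SE 0.10). Reck, a membrane-anchored inhibitor of metalloproteinases, was at 7.65, 8.19, 8.03 and 7.68 in knockout arrays, against 8.70, 8.39 and 8.20 in wildtype arrays. Its difference of -0.54 (SE 0.16) did not pass (limma adjusted p = 0.320), and all values were below the background level.

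The other amyloid-degrading enzymes had 5 tested genes of 9 measured, 2 above and 3 below 0 (median -0.073), and 0 called or at an unadjusted p under 0.05 in limma. Pitrm1, a mitochondrial peptidase, differed by -0.23 (SE 0.11) and Plat, tissue plasminogen activator, by -0.27 (SE 0.15). The plasminogen activation list had 6 tested genes of 9 measured, 2 above and 4 below 0 (median -0.14), with 0 called in limma and 1 at an unadjusted p under 0.05. Anxa2, a cell-surface protein that binds plasminogen, was at 9.59, 9.90, 9.98 and 10.50 in knockout arrays, against 9.16, 9.48 and 9.39 in wildtype arrays. The genotypes did not overlap, and the difference of 0.65 (SE 0.19) did not pass (limma adjusted p = 0.315). Like Plaur, Anxa2 was highest in knockout replicate 4. Vtn, vitronectin, which is also a mural marker, differed by -0.37 (SE 0.23).

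The ADAM and ADAMTS list, enzymes that shed surface proteins or cut proteoglycans, had 8 tested genes of 16 measured, 5 above and 3 below 0 (median 0.096). In limma 0 were called and 0 had an unadjusted p under 0.05. Adamts1 differed by 0.20 (SE 0.10), Adamts12 by -0.20 (SE 0.11) and Adam8 by 0.51 (SE 0.42). Matrix proteins that these enzymes cut were below 0 in all 8 tested genes of 11 measured, with a median of -0.24, 0 called in limma and 1 at an unadjusted p under 0.05. Of all 10004 tested genes, 5138 were below 0. Lamc1, a laminin chain of the vessel basement membrane, differed by -0.49 (SE 0.22), Nid1 by -0.31 (SE 0.14) and Lama4 by -0.26 (SE 0.13). Of the 11 measured, 8 lay at or below the background level on all arrays, Lamc1, Nid1 and Lama4 among them. Lamc1 passed the filter through 2 knockout and 3 wildtype arrays, and Nid1 through 1 knockout and 2 wildtype arrays. Vessel markers moved the same way as the matrix genes. All 11 tested endothelial markers and all 6 tested mural markers were below 0 (medians -0.21 and -0.37). In limma 0 were called in each, with 4 and 2 at an unadjusted p under 0.05, where the share over all tested genes was 11.9% (3.54% lower). The part of vessel cells in the matrix genes was not tested.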

How the data were processed

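The authors deposited a table of log2 expression per probe set, made with RMA in Expression Console 1.1 according to the submitters' processing notes (array annotation build: not given in the sources used here). Values in its 28846 rows ran from 3.57 to 14.34 and were not normalized further. A probe annotation named 1 gene for 19572 rows and none for 9274. All 19572 matched a reference table (GRCm38.p6) by Entrez identifier, giving 19505 genes; among several probe sets the one with the highest mean was kept. Rows tagged neg in their identifier were read as negative controls.

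The genotypes were compared by lmFit and eBayes of limma 3.58.1, run in R 4.3.3, over 10004 genes above the array median (7.92 to 7.99) in at least 3 arrays, with Benjamini-Hochberg adjustment, tested on simulated data. Replicate numbers follow deposit order. Since nothing says that samples are separate animals, the spread behind each p-value may be technical, and the number of arrays limits precision. Members and lists were chosen with earlier results of these data known. The text names B2m, the 10 genes, called genes or else the 3 smallest p per pathway list, the brightest and smallest-p marker per cell type where described, and 5 genes by likeness. The markers P2ry12 and Tmem119 were named after their values were seen. Alternatives varied the filter, variance prior, weights, normalization, probe set rule and arrays.

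Microglia, fibroblast, astrocyte, oligodendrocyte, neuron and T cell markers had 0 called genes in limma (0 at an unadjusted p under 0.05) over 9, 3, 2, 5, 2 and 1 tested genes.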

Additional observations from a re-analysis of the deposited data

Results flagged for a closer look

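One group stood out among the 45 genes checked for a knockout array far from the other 3. Csf1r, the microglial growth factor receptor, was 13.36 in knockout replicate 4, against 13.28 to 13.29 in the other knockout arrays. Chance alone sets apart about 5% of such groups.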

How the results depend on the processing

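The Mmp12 difference ran from -0.79 to -0.60 over 18 alternatives and stayed below 0 in all of them, and from -0.77 to -0.66 when each array was left out in turn. Ece1 (-0.33 to -0.24), Timp3 (-0.34 to -0.12), Mmp2 (-0.23 to -0.073), Plau (-0.16 to -0.015) and Plaur (0.24 to 0.43) also kept their direction in all 18. Mmp14 (-0.11 to 0.16), Timp1 (-0.094 to 0.18), Ide (-0.20 to 0.21) and Mme (-0.29 to 0.078) did not. The filter, variance prior and probe set alternatives cannot change the difference of a gene with 1 probe set. For Mmp12, Ece1 and Plaur the genotypes do not overlap, so leaving out arrays could not reverse their direction. A kept direction is therefore partly fixed in advance. Without wildtype replicates 1 and 2 together, an alternative chosen after seeing the data that leaves 1 wildtype array, 1 of the 8 tested genes had an unadjusted p under 0.05 in limma, and in the other alternatives 2 to 4 did. Plaur was not among them without wildtype replicate 2, and Ece1 was not without wildtype replicate 1 and knockout replicate 4 together. Under the stricter filter 6 of the 10 genes were tested, and Ece1 and Timp3 were not. In limma 0 of the 10 genes and 0 of the 33 further listed genes were called in alternatives that tested them and kept more than 1 wildtype array. Timp1 and Mme were tested only with no filter. Over all genes, leaving out each array in turn gave 4 to 26 called genes, with 26 without wildtype replicate 3. Genes at an unadjusted p under 0.05 numbered 1193, 700 without wildtype replicate 1, 795 without wildtype replicate 2 and 302 without both. Among the 33 this count was 3, with 1 under the stricter filter, 5 without knockout replicate 3 or 4, 7 without wildtype replicate 3, 6 without knockout replicates 3 and 4 together and 0 without wildtype replicates 1 and 2. The alternative without knockout replicates 3 and 4 together was also chosen after seeing the data. The cause of these changes in count was not tested. No paired analysis was possible because no label links a knockout sample to a wildtype sample. Signal near the negative control rows limits Ece1, Timp3, Timp1, Mme and, on 2 arrays, Mmp14.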
